A study of Mus musculus with 32 samples.

Results

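The Prame-like genes of the mouse are a multigene family whose transcripts were followed here in single metaphase II eggs and single 2-cell embryos. The members were the rows of the expression table whose gene symbol starts with Pramel or Pramef, which gave 14 of 54532 rows. Of these 14, 12 are annotated as protein coding, Pramef12os is an antisense transcript inside Pramef12, and Pramel is an unprocessed pseudogene on the X chromosome. RefSeq has renamed much of the family, so Pramef6 is Pramel11, Pramef8 is Pramel12, Pramef12 is Pramel13, Pramef17 is Pramel14, Pramef20 is Pramel15 and Pramef25 is Pramel16 in that catalogue, and 22 further rows with clone-type symbols carry Pramel names there. Levels are in FPKM, fragments scaled to gene length and to the size of the library, as deposited by the authors.

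PRAME proteins are built of leucine-rich repeats and take their name from a human tumour antigen. Human PRAME acts as a substrate receptor of a ubiquitin ligase built on the scaffold protein CUL2 and has been described as a repressor of retinoic acid signalling. In mouse embryonic stem cells, PRAMEL7 has been linked to the breakdown of UHRF1, a factor needed to copy DNA methylation to new DNA strands, and the mouse family lies in clusters of near-identical copies with expression mainly in germ cells and early embryos.

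The series holds 32 libraries in 6 groups. Knockout-labelled eggs (KO, 3 libraries) carried Trp53 alleles that had lost exons 2 to 10 through a Cre driven by Ddx4, a germ cell gene, and WT eggs numbered 3. Maternal-zygotic knockout (MZ-KO) early 2-cell embryos (6) had both parents knocked out and were collected, like WT early embryos (8), 28 to 32 h after the ovulation trigger hCG. Late MZ-KO (6) and WT (6) 2-cell embryos were collected at 48 h after culture in KSOM, a simple embryo medium. WT controls were Trp53 flox/flox animals without the deletion, on the same mixed Bl6/C57 background, and the labels do not tie libraries to females, so p-values measure the spread between single eggs or embryos.

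Each egg or embryo was lysed alone and amplified by SMART-seq, a full-length poly(A) cDNA method, with 15 cycles, then cut with Tn5, which keeps no strand. The scale of the values corresponded to about 7210000 to 27600000 reads a library, median 18300000, and WT early library 8 was the shallowest. WT early library 3 stood apart, with a median Spearman correlation to its own group of 0.748. Egg markers were present in eggs, with all 10 listed genes at a mean of 1 FPKM or more, and the summed cumulus and granulosa markers reached at most 0.804 FPKM in any library. Trp53 averaged 8.19 ± 1.75 FPKM in KO and 7.86 ± 2.13 FPKM in WT eggs (SD, n = 3 each), 0.770 ± 0.326 FPKM in MZ-KO (n = 6) and 6.05 ± 2.64 FPKM in WT early embryos (n = 8), and 2.82 ± 1.38 FPKM in MZ-KO and 3.24 ± 2.31 FPKM in WT late embryos (n = 6 each). Its level therefore separated the genotypes only in early embryos, and the egg and late groups are named by their labels.

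The members lie in 3 places in the mouse genome (mm10, GENCODE M21). Pramel7 (chromosome 2, 87489087 to 87497093, minus strand) and Pramel6 (chromosome 2, 87506565 to 87510872, plus strand) are neighbours 9471 bp apart. Another 10 members share a stretch of 1014 kb on chromosome 4, 143394428 to 144408464, which holds 47 annotated genes. Within it, Pramef6 (143894237 to 143900380), Pramef25 (143948580 to 143951016), Pramef17 (143991119 to 143994369) and Pramel5 (144270633 to 144280488) are on the minus strand, and Pramel4 (144059126 to 144069327) is on the plus strand. Pramel and Pramel3 are on the X chromosome.

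Promoter sequences are shown for the members on which the comparisons in late embryos turn. Pramel7 and Pramef17 are the closest pair across chromosomes, Pramel4 and Pramel5 are the most alike of all, and Pramel6 is the genomic neighbour of Pramel7. Each run covers 250 bases before to 50 bases after the RefSeq start (GRCm38.p6), 5′ to 3′ on the gene's strand. Capitals mark stretches of at least 16 bases found without a mismatch in the promoter of the other member of the pair.
Pramel7 (chr2:87492369-87492668, minus strand): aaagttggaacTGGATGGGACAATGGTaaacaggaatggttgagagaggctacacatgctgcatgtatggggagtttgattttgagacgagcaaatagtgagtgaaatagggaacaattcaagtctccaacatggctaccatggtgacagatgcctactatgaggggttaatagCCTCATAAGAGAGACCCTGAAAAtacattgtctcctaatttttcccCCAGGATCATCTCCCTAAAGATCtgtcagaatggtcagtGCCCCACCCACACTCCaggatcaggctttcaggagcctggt
Pramef17 (chr4:143994320-143994619, minus strand): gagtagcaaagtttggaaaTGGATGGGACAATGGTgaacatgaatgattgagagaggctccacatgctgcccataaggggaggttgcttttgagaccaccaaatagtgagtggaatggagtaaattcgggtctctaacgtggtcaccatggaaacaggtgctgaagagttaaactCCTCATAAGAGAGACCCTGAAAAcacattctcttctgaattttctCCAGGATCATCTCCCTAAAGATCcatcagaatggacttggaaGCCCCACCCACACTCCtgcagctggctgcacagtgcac
Pramel4 (chr4:144058875-144059174, plus strand): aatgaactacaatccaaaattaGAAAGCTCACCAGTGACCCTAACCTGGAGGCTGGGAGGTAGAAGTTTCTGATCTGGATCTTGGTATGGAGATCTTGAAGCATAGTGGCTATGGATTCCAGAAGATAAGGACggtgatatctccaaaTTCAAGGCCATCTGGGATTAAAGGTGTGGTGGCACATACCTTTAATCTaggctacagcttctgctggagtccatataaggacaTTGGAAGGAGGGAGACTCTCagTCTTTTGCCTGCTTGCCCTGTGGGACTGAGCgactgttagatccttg
Pramel5 (chr4:144280417-144280716, minus strand): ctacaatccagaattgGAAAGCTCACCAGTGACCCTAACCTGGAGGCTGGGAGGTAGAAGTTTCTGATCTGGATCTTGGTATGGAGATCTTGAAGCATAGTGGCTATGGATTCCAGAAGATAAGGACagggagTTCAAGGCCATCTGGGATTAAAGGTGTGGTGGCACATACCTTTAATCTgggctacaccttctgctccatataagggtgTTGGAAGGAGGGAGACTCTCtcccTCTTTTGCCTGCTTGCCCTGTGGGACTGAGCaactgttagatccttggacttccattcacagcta
Pramel6 (chr2:87506315-87506614, plus strand): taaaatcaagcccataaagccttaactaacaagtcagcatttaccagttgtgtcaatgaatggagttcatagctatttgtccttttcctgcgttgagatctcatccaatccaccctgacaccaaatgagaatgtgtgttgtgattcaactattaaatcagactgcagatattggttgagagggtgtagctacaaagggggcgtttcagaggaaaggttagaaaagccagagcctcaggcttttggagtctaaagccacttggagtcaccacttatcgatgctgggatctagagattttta

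The promoters of Pramel4 and Pramel5 were identical over 210 of 300 bases in such stretches, the longest 111 bases, and 83.4% identical in alignment. The windows of Pramel7 and Pramef17 shared 78 of 300 bases in such stretches, the longest 23 bases, and were 75.2% identical. The first gene is on chromosome 2 and the other on chromosome 4. In both windows the 50 bases after the start open with ATG and hold the last shared stretch. Their likeness may therefore include coding sequence. Pramel6 shared no stretch of that length with Pramel7, and their promoters were 45.1% identical, close to the median of 46.7% over 66 pairs. The RefSeq start used for Pramel7 lies inside its longer GENCODE span. Promoters were found for 12 members, and Pramef8 and Pramef12os had none in the table.

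Motifs were counted in those 12 promoters on both strands. The letters TGATT and AATCA with any 1 base between them, a palindrome like those bound by double-homeodomain proteins such as DUX, were in 0 of 12 member promoters and in 0.0335% of 32851 RefSeq promoters. GGATTA, a site typical of paired-like homeodomain proteins of the OTX and OBOX kind, was in 3 of 12, those of Pramef6, Pramel4 and Pramel5, against 7.06% of all promoters. TATAAA was in 1 of 12, that of the pseudogene Pramel, against 13.6% of all. Pramel4 and Pramel5 hold GGATTA in the same shared stretch, so these are not separate observations.

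Coding sequences of the 12 protein-coding members were 49.1% to 85.2% identical over 66 pairs, median 57.6%. The closest pairs were Pramel4 with Pramel5 (85.2%), Pramef6 with Pramel5 (81.5%), Pramef17 with Pramel7 (79.9%), Pramef6 with Pramel4 (77.5%) and Pramef25 with Pramef8 (72.7%). Pramel3 was the most distant member, at most 52.6% identical to another.

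**Figure D1:**
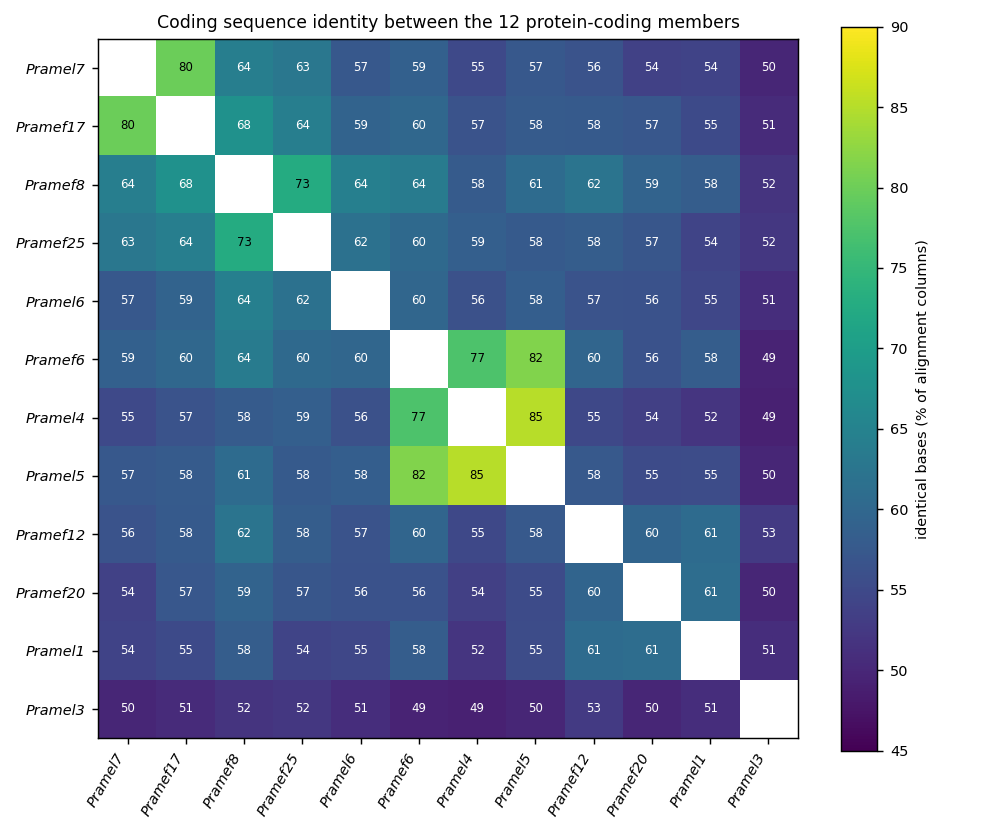
Identity between coding sequences of the 12 protein-coding members, as percent of alignment columns with the same base (colour and printed value, from global alignments). The bright cells are Pramel7 with Pramef17 at 79.9% and the block of Pramef6, Pramel4 and Pramel5 at up to 85.2%, while the row of Pramel3 is dark throughout.

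Near-identical copies limit what a member's value means. The share of exact 50-base stretches of a member's transcripts that also occur in another gene's transcripts was 87.4% for Pramel4, mostly Gm13102, 81.8% for Pramel3, with Gm15023, AV320801 and Gm5128, 73.5% for Pramef17, with Gm13128, and 63.5% for Pramef25, with Gm13040, Gm13043 and Gm13057. It was 33.7% for Pramef6, with Gm13083, 25.9% for Pramel5, with Pramel4, and 1.43% for Pramel7. The other 7 members shared none. How the authors' counting placed reads that match several genes is not given in the sources used here, so values of Pramel4, Pramel3, Pramef17 and Pramef25 may hold reads of these copies.

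The summed level of the 14 members was 25.5 ± 7.70 FPKM in KO and 22.7 ± 2.03 FPKM in WT eggs (SD, n = 3 each). In early embryos it was 42 ± 4.77 FPKM in MZ-KO (n = 6) and 38.1 ± 7.33 FPKM in WT (n = 8). In late embryos it was 129 ± 21.2 FPKM in MZ-KO, between 103 and 160 FPKM, and 324 ± 48.1 FPKM in WT, between 255 and 386 FPKM (n = 6 each). The late ranges did not overlap. Of the 14 members, 12 averaged at least 1 FPKM in some group, and Pramel and Pramef12os did not, with a highest library at 0.0370 FPKM for Pramel and 0.749 FPKM for Pramef12os. Without strand, reads of Pramef12os and of Pramef12, which it overlaps, cannot be told apart.

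The members took turns in leading the family. Rescaled to annotated exon length, since the deposited FPKM divide by the whole gene span including introns, Pramef12 led in KO eggs (37.9) and WT eggs (63.1), and Pramef20 led in MZ-KO (101) and WT (74.9) early embryos. In late embryos Pramel6 (113) and Pramel7 (99.1) led in MZ-KO, while Pramel7 (473) led in WT, followed by Pramel6 (131) and Pramel4 (95.8). The rescaling matters most for Pramef12, whose span is 6.53 times its exon length, and least for Pramef25, at 1.45 times.

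**Figure D2:**
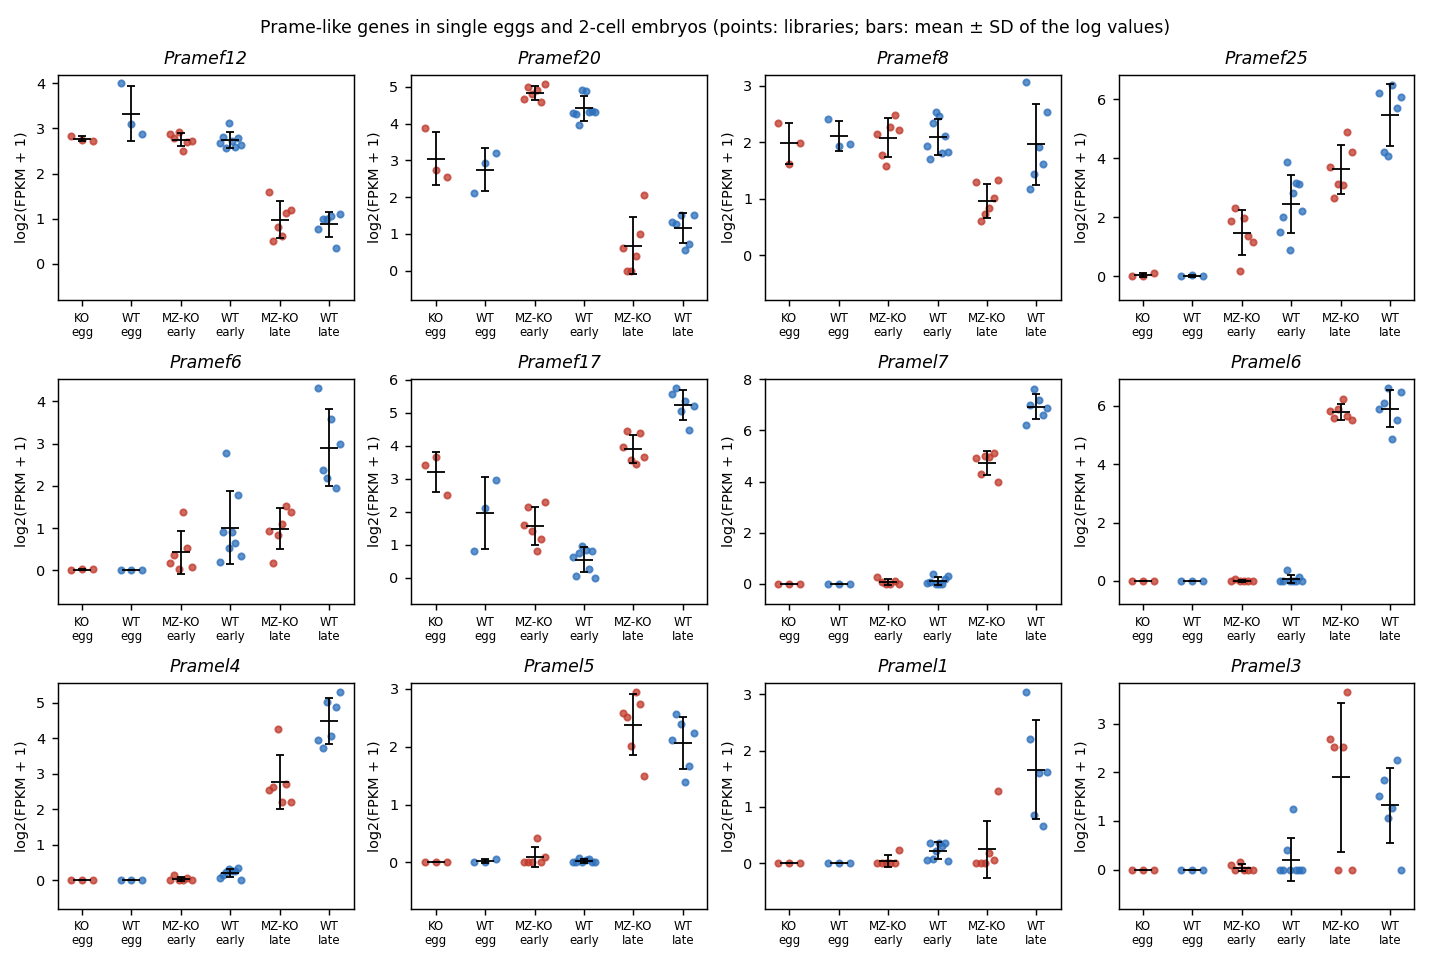
Level of the 12 members that averaged at least 1 FPKM in some group, as log2(FPKM + 1) on a scale of its own in each panel, in the 6 groups with knockout-labelled libraries in red and WT in blue. Points are libraries and black bars the mean ± SD of the log values; Pramel7 and Pramel6 lie at 0 in all eggs, and late MZ-KO and WT embryos do not overlap for Pramel7, Pramef17 and Pramef6.

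Pramef12, a member carried over from the egg, was present in every library at all stages. Its level was 6.11, 5.70 and 5.63 FPKM in the KO eggs, against 15.1, 7.58 and 6.31 FPKM in the WT eggs. The ranges did not overlap, as for 15.5% of the 6607 genes tested, and 1 WT egg was far above the others. The egg difference was not called (limma, adjusted p = 0.652). Early embryos held 4.70 to 6.51 FPKM in MZ-KO (median 5.75) and 4.93 to 7.75 FPKM in WT (median 5.49). In late embryos 0.418 to 2.02 FPKM remained in MZ-KO (median 0.975) and 0.287 to 1.15 FPKM in WT (median 0.996). Pramef12 thus fell late in both genotypes, by 1.77 in MZ-KO (SE 0.18, adjusted p = 4.4e-07) and 1.86 in WT (SE 0.14, adjusted p = 2.66e-09) on the log2(FPKM + 1) scale, on which all differences below are given (limma, Benjamini-Hochberg over all genes tested).

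Pramef20 rose in early embryos and was cleared by the late stage. KO eggs had 13.6, 5.66 and 4.81 FPKM and WT eggs 3.30, 6.67 and 8.22 FPKM. Early embryos had 23.2 to 32.7 FPKM in MZ-KO (median 28.1) and 14.4 to 29.3 FPKM in WT (median 18.9), every one above every egg. The difference of early embryos over eggs was 1.79 in the knockout-labelled libraries (SE 0.27, adjusted p = 0.000518) and 1.66 in WT (SE 0.25, adjusted p = 0.000233). In late embryos Pramef20 was at 0 to 3.19 FPKM in MZ-KO (median 0.427) and 0.491 to 1.87 FPKM in WT (median 1.47), a difference of late over early of -4.16 in MZ-KO (SE 0.30, adjusted p = 1.38e-08) and -3.25 in WT (SE 0.20, adjusted p = 3.16e-10).

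Pramef8 held one level through egg and early embryo. It was 4.09, 2.04 and 2.95 FPKM in KO eggs and 4.31, 2.82 and 2.90 FPKM in WT eggs, then 1.97 to 4.62 FPKM in MZ-KO (median 3.55) and 2.24 to 4.80 FPKM in WT early embryos (median 3.08). In late embryos it was 0.519 to 1.52 FPKM in MZ-KO (median 0.894) and 1.26 to 7.43 FPKM in WT (median 2.42). The drop of late below early was called in MZ-KO (-1.11, SE 0.18, adjusted p = 5.8e-05), and the WT difference of -0.13 was not (95% interval -0.70 to 0.43, adjusted p = 0.644).

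Pramef17 was present in eggs, low in early embryos and high in late ones. KO eggs had 9.72, 11.5 and 4.66 FPKM and WT eggs 0.757, 3.31 and 6.77 FPKM. Early MZ-KO embryos had 0.769 to 3.93 FPKM (median 1.84) and early WT embryos 0 to 0.963 FPKM (median 0.624). In late embryos the level was 9.95 to 20.9 FPKM in MZ-KO (median 13.1) and 21.2 to 52.4 FPKM in WT (median 37.9). Early MZ-KO embryos were below KO eggs by a called -1.61 (SE 0.36, adjusted p = 0.00493). The WT egg to early comparison did not test Pramef17, since its level passed 1 FPKM in 2 WT eggs and no early embryo, and without the filter the difference was -1.41 (adjusted p = 0.0331).

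Pramef25 and Pramef6 appeared first in early embryos. Pramef25 was listed at 0 in 2 KO and 2 WT eggs and reached 0.0850 FPKM in the last KO egg and 0.0370 FPKM in the last WT egg. It was 0.148 to 3.98 FPKM in MZ-KO (median 2.12) and 0.850 to 13.7 FPKM in WT early embryos (median 4.93). The rise over eggs was 1.44 in the knockout-labelled libraries (SE 0.40, adjusted p = 0.0133; 0.0593 without the filter) and 2.44 in WT (SE 0.52, adjusted p = 0.00217). In both comparisons 0 eggs reached 1 FPKM, so Pramef25 passed the filter only through the early embryos. The filter thus favoured a rise, and these calls are no separate support for it. The highest WT value, 13.7 FPKM, came from WT early library 3, and without it the WT rise was 2.23 (adjusted p = 0.00178).

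Pramef6 stayed below 1 FPKM in all eggs and in most early embryos. It was 0.0170 to 1.63 FPKM in MZ-KO early embryos (median 0.208) and 0.148 to 5.86 FPKM in WT early embryos (median 0.723), where WT early library 3 was again the highest. Late MZ-KO embryos held 0.125 to 1.88 FPKM (median 1.04) and late WT embryos 2.85 to 18.9 FPKM (median 5.58). It rose between the early and late stages in WT (1.89, SE 0.43, adjusted p = 0.000772), and in MZ-KO it did not pass the filter.

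The other 6 members were essentially late genes. Pramel7 and Pramel6 had 0 recovered reads in all 6 eggs, where 3 reads would have been at most 0.0278 and 0.0517 FPKM. In early embryos Pramel7 had 56 reads over the 6 MZ-KO and 92 over the 8 WT libraries, and Pramel6 had 4 reads in MZ-KO and 32 in WT. Late embryos held 25840 reads of Pramel7 in MZ-KO and 118514 in WT, and 27446 reads of Pramel6 in MZ-KO and 32916 in WT. The difference of late over early was 4.64 for Pramel7 in MZ-KO (SE 0.20, adjusted p = 9.45e-11) and 6.80 in WT (SE 0.19, adjusted p = 2.56e-13). For Pramel6 it was 5.77 in MZ-KO (SE 0.14, adjusted p = 1.88e-12) and 5.84 in WT (SE 0.22, adjusted p = 2.52e-12). PCR copies carry no molecular identifiers, so read counts and the 3-read limit cover counting error only.

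Pramel4, the fifth highest member in late WT embryos by deposited FPKM, reached at most 0.0100 FPKM in eggs, 0.102 FPKM in MZ-KO early and 0.277 FPKM in WT early embryos. It rose by 2.72 in MZ-KO (SE 0.28, adjusted p = 5.75e-07) and 4.28 in WT (SE 0.22, adjusted p = 6.09e-11). Pramel5 rose by 2.30 in MZ-KO (SE 0.21, adjusted p = 1.7e-07) and 2.04 in WT (SE 0.15, adjusted p = 2.95e-09). Pramel3 rose by 1.12 in WT (SE 0.29, adjusted p = 0.0023) and was not tested in MZ-KO, where 2 of 6 late libraries were listed at 0. Pramel1 reached 1 FPKM in 1 late MZ-KO and 4 late WT embryos and passed no filter.

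Counted over the late over early comparisons, 6 members were higher and 3 lower of 9 tested in MZ-KO, where 81.7% of 8944 genes were called (48.3% higher, 33.3% lower). In WT, 8 members were higher and 2 lower of 11 tested, where 85% of 9319 genes were called (46.6% higher, 38.4% lower). Ranges of late and early embryos did not overlap for 9 of the 14 members in each genotype. In MZ-KO these were the 9 tested, and in WT they included Pramel1, which was not tested. Over the genes tested, 65.8% in MZ-KO and 64.9% in WT had no overlap. All 9 members called in MZ-KO passed the filter only through the stage where they were high. So did 6 of the 8 higher and the 2 lower ones in WT. The filter thus favoured a difference in the direction called, and the counts are given only as a description. Between early embryos and eggs, 2 members were higher and 1 lower of 5 tested in the knockout-labelled libraries (49.2% of 8305 genes called, 29.2% higher and 20% lower), and 2 higher and 1 lower of 4 tested in WT (51.3% of 8619 called, 30.4% higher and 20.9% lower). The lower one in WT was Pramef12 (-0.59, SE 0.22, adjusted p = 0.0397), a call lost in 7 of 11 fits that left out 1 library, 6 of them without an early embryo (adjusted p between 0.0530 and 0.0610) and 1 without WT egg 1 (-0.24, adjusted p = 0.262), and also lost without the filter (adjusted p = 0.114).

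**Figure D3:**
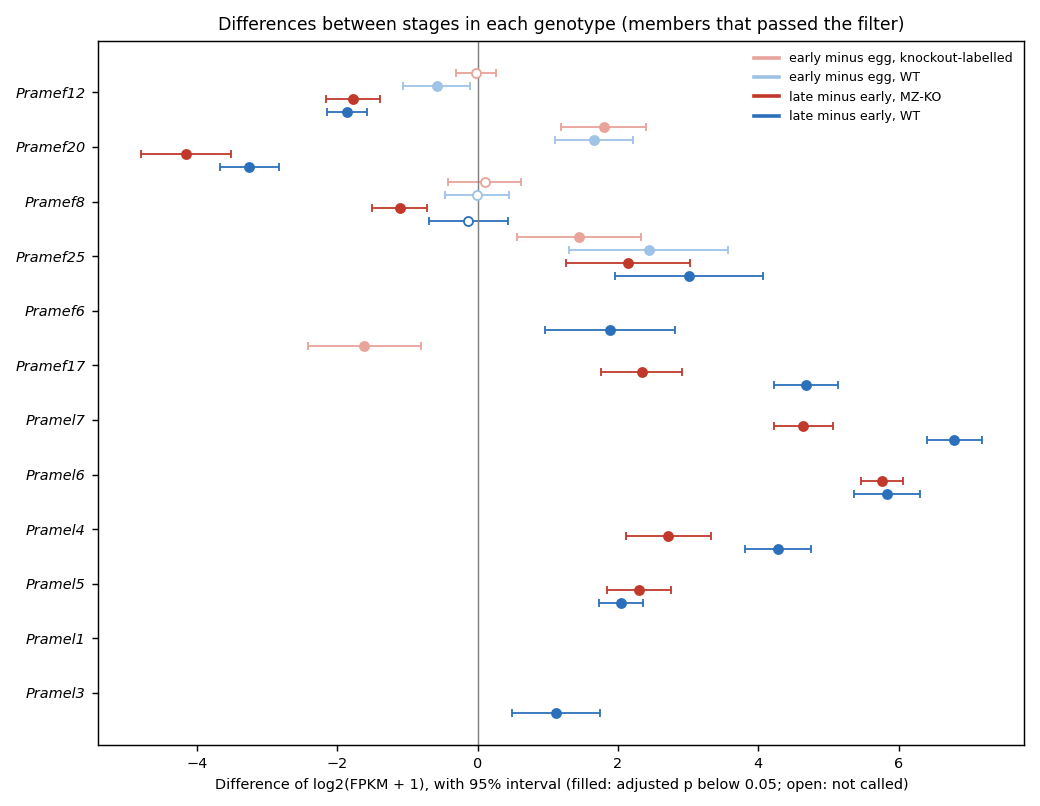
Difference of log2(FPKM + 1) between successive stages for members that passed the filter, as points with 95% intervals, in knockout-labelled (red tones) and WT (blue tones) libraries. Filled points have an adjusted p below 0.05; Pramel7, Pramel4 and Pramef17 lie further right in WT than in MZ-KO for late over early, while the intervals of both genotypes overlap for Pramel6 and Pramel5.

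The genotypes differed in late embryos, and for some members only. MZ-KO embryos were lower than WT for 6 of 11 members tested, and 0 were higher, where 31.9% of 8772 genes were called (13.4% lower, 18.5% higher). The median difference was -0.99 over the members tested and 0.07 over all genes. The 6 were Pramel7, Pramef6, Pramef25, Pramel4, Pramef17 and Pramef8. Pramef6 and Pramef8, with 3 of 6 MZ-KO embryos at 1 FPKM each, passed the filter only through the WT embryos. For them the filter favoured a lower MZ-KO level, and their calls are no separate support for it. Rescaling the libraries by median ratios moved the median of all genes by -0.15 and changed the split of calls from 1624 higher and 1178 lower to 1097 higher and 1628 lower, and the 6 members stayed lower.

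Pramel7, the member known for its effect on UHRF1, was the most abundant one in late WT embryos and had the largest called difference on the log2(FPKM + 1) scale. Late MZ-KO embryos held 14.7 to 33.9 FPKM (median 30) and late WT embryos 72.9 to 198 FPKM (median 121). Every MZ-KO embryo was below every WT embryo, and the MZ-KO mean was 0.209 of the WT mean, a smaller change than the 0.136 of Pramef6, whose low levels the log2(FPKM + 1) scale compresses. The difference was -2.20 (SE 0.26, adjusted p = 0.00012), and it lay between -2.34 and -2.05 with any 1 of the 12 libraries left out.

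Pramel6, its neighbour on chromosome 2, did not pass the test. Late MZ-KO embryos held 44.6 to 74.5 FPKM (median 52.5) and late WT embryos 27.9 to 95.4 FPKM (median 62.9), and the MZ-KO values lay inside the WT range. The difference was -0.12 (95% interval -0.70 to 0.46, adjusted p = 0.759). The log2 ratio of Pramel7 to Pramel6 was -1.06 ± 0.36 in MZ-KO and 1.02 ± 0.72 in WT (SD, n = 6 each), so Pramel6 was the higher of the pair in all 6 MZ-KO embryos and Pramel7 in all 6 WT embryos by deposited FPKM. The ratio differed by -2.08 (exact permutation test, two-sided, p = 0.00216, the smallest that 6 against 6 can give, 0.0108 adjusted over 5 pairs). A ratio difference on this scale is 1 member's late difference minus that of the other, in the same libraries. The ratio is thus no separate support for the call of Pramel7. Which member of the pair leads in single MZ-KO embryos depends on the gene length used. The span is 3.75 times the exon length for Pramel7 and 2.07 times for Pramel6. Per exon length the MZ-KO means were 99.1 for Pramel7 and 113 for Pramel6.

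Pramel4, on chromosome 4, had 3.58 to 18.0 FPKM in late MZ-KO (median 5.00) and 12.2 to 38.1 FPKM in late WT embryos (median 22.2). The ranges met through MZ-KO late library 3, the only one above 6 FPKM in its group. Its difference was -1.73 (SE 0.38, adjusted p = 0.00435). Gm13102, with which Pramel4 shares most of its sequence, was at 13.8 ± 12.2 FPKM in late MZ-KO and 45.4 ± 20.2 FPKM in late WT embryos. Its called difference was -1.79 (SE 0.40, adjusted p = 0.00505). The values of both genes may hold the same reads, so Gm13102 is no separate support for Pramel4.

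Pramel5, the closest relative of Pramel4 by promoter and coding sequence, had 1.82 to 6.74 FPKM in late MZ-KO (median 4.84) and 1.63 to 4.93 FPKM in late WT embryos (median 3.54). Its difference was 0.32 (95% interval -0.27 to 0.90, adjusted p = 0.393). The log2 ratio of Pramel4 to Pramel5 was 0.37 ± 1.02 in MZ-KO and 2.42 ± 0.79 in WT and differed by -2.05 (exact permutation test, p = 0.00649, adjusted 0.0108). For Pramef6 to Pramel5 it was -1.39 ± 0.76 in MZ-KO and 0.84 ± 1.11 in WT and differed by -2.23 (exact permutation test, p = 0.00649, adjusted 0.0108), with Pramef6 a member that passed the filter only through WT.

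Pramef6 differed by -1.91 between late MZ-KO and WT embryos (SE 0.38, adjusted p = 0.00268; 0.0146 without the filter, through which it passed only by its WT level), with no overlap of the ranges, and Pramef17 by -1.32 (SE 0.24, adjusted p = 0.00151), also with none. Those 2 and Pramel7 were the only members without overlap, 3 of the 11 tested, all of them lower in MZ-KO. Of the 8772 genes tested 13.7% had no overlap, and 5.48% were lower without overlap. Gm13128, which shares sequence with Pramef17, was at 18.4 ± 6.34 FPKM in MZ-KO and 66.7 ± 21.4 FPKM in WT (difference -1.81, adjusted p = 0.000383). Gm13083, which shares sequence with Pramef6, was at 1.38 ± 0.768 FPKM in MZ-KO and 7.78 ± 6.01 FPKM in WT (difference -1.63, adjusted p = 0.015). How reads that match both a copy and a member were placed is not given, so the copies are no separate support. The ratio of Pramef17 to Pramel7, the closest pair across chromosomes, differed by 0.89 (exact permutation test, p = 0.0455, adjusted 0.0568).

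Pramef25, the third highest member of late WT embryos by deposited FPKM and the fourth per exon length, varied widely. Late MZ-KO embryos had 5.29 to 29 FPKM (median 9.96) and late WT embryos 15.9 to 88.3 FPKM (median 59.0), with overlapping ranges. The difference was -1.84 (SE 0.49, adjusted p = 0.0129; 0.0526 without the filter). Pramef8 was lower by a difference of -0.99 (SE 0.30, adjusted p = 0.022). It was not called without the filter (adjusted p = 0.0758) or without MZ-KO late library 2 (adjusted p = 0.0503). The ratio of Pramef25 to Pramef8 differed by -0.85 (exact permutation test, p = 0.0628, adjusted 0.0628). The 5 pairs were the neighbours on chromosome 2 and members with their nearest coding sequence at 70% identity or more, chosen after the values were seen. All 5 ratio tests reuse the libraries and values of the member tests, so they are no separate support for the member calls.

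**Figure D4:**
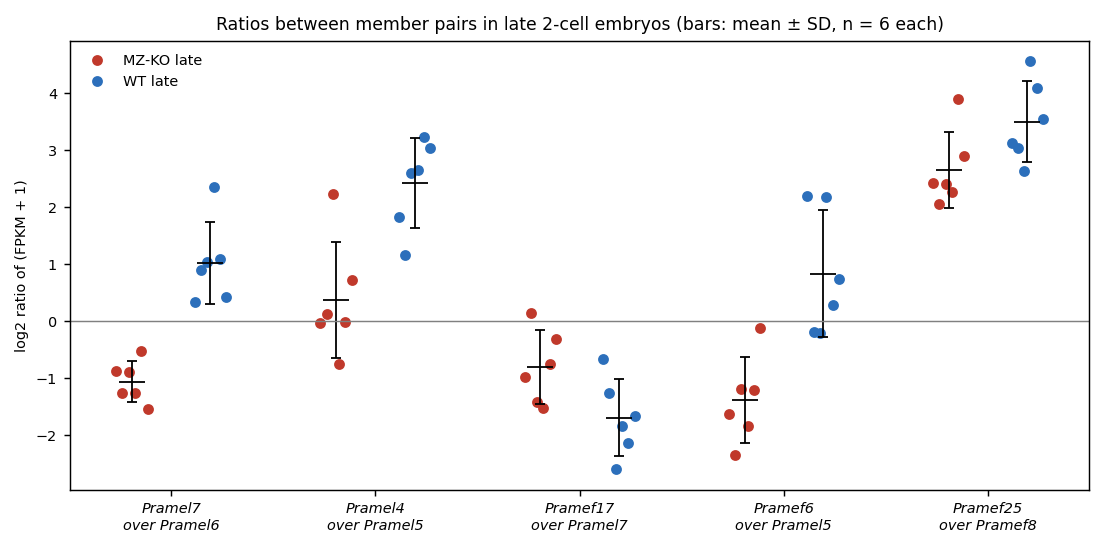
Log2 ratio of (FPKM + 1) between members of 5 pairs in each late MZ-KO (red) and WT (blue) embryo, with the mean ± SD as black bars. The MZ-KO and WT points do not overlap for Pramel7 over Pramel6, whose means are -1.06 in MZ-KO and 1.02 in WT, and overlap for the 4 other pairs.

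Of the members not called between late embryos, Pramef20 differed by -0.48 (95% interval -1.19 to 0.24, adjusted p = 0.287). Without MZ-KO late library 6, the highest of its group at 3.19 FPKM, the difference was -0.75 and passed (adjusted p = 0.04). Pramef12 differed by 0.09 (95% interval -0.34 to 0.53), and Pramel3 by 0.57 (95% interval -0.77 to 1.92) with libraries at 0 in both genotypes. Pramel1 was listed at 0 in 3 of 6 late MZ-KO embryos and was 0.580 to 7.19 FPKM in late WT embryos, and without the filter its difference was -1.41 (adjusted p = 0.0513).

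The authors' deposited table holds 1 comparison without named groups, whose log2 fold changes followed late WT over MZ-KO (Pearson r = 0.967 over 8772 genes, against 0.172 for the early and 0.0229 for the egg contrast, as a description across genes). Its signs therefore run opposite to those above. In the authors' deposited table Pramel7 stood at 2.49 (SE 0.30, adjusted p = 3.32e-14), Pramef6 at 3.06 (SE 0.54, adjusted p = 5.88e-07) and Pramel6 at 0.40 (SE 0.28, adjusted p = 0.335). Pramel1 passed in the authors' deposited table, at 3.55 (SE 1.25, adjusted p = 0.0258).

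Early embryos gave no called member. Of 4 tested, 0 passed between MZ-KO and WT by limma, where 3.28% of 7675 genes were called (2.58% higher, 0.704% lower), and 2 of the 4 had an unadjusted p under 0.05. Those were Pramef20, at 0.43 (SE 0.15, adjusted p = 0.12), and Pramef25, at -0.97 (SE 0.44, adjusted p = 0.222, or -0.77 without WT early library 3). Pramef17 was not tested, and without the filter its difference was 1.03 (SE 0.24, adjusted p = 0.138), opposite in sign to the late one. Between KO and WT eggs 0 of 4 tested members passed, with 0 at an unadjusted p under 0.05, and 0.333% of 6607 genes were called (0.212% higher, 0.121% lower). The largest egg difference was that of Pramef17, 1.23 (95% interval -0.01 to 2.47, adjusted p = 0.579).

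**Figure D5:**
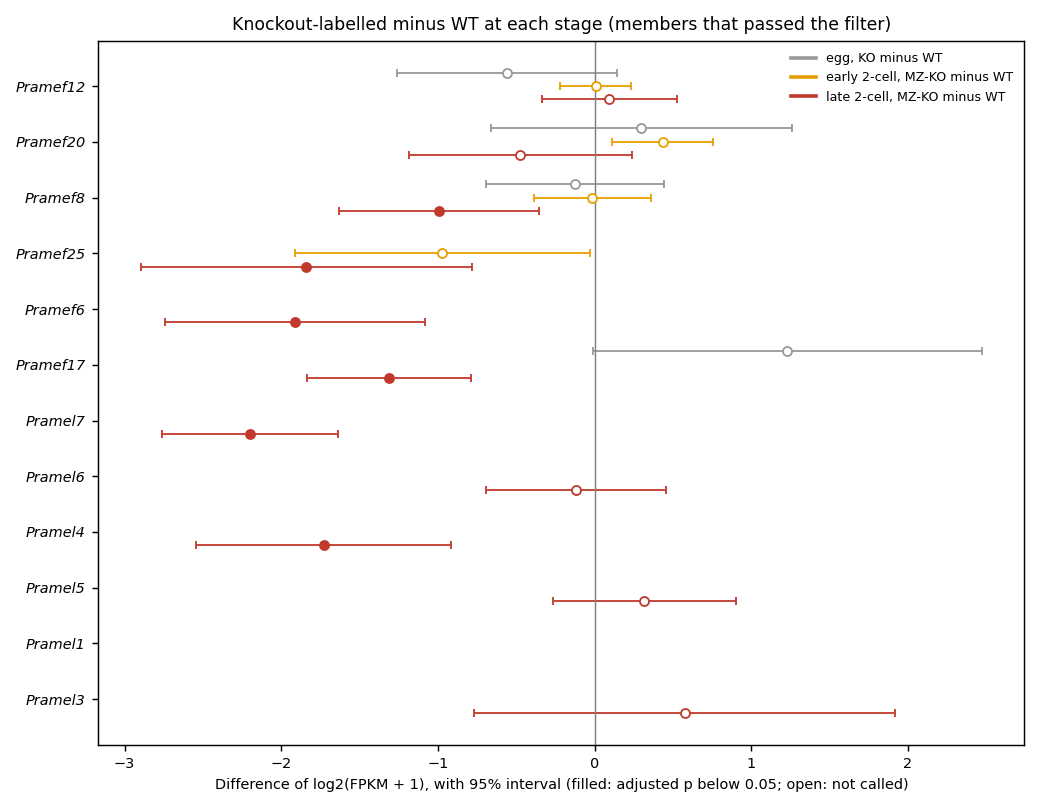
Difference of log2(FPKM + 1) of knockout-labelled minus WT libraries for members that passed the filter, at the egg (grey), early (orange) and late (red) stage, with 95% intervals. Filled points, all of them late and negative, have an adjusted p below 0.05; the egg intervals are the widest for Pramef17, from -0.01 to 2.47.

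The change of the genotype difference between stages was tested in 1 fit over both stages. It was lower at the late than at the early stage for 4 of 11 members tested and higher for 0, where 20.4% of 11558 genes were called (8.4% lower, 12% higher). Pramef17 changed most, by -2.34 (SE 0.35, adjusted p = 4.9e-05), followed by Pramel7 at -2.16 (SE 0.27, adjusted p = 5.76e-06). Pramel4 changed by -1.56 (SE 0.37, adjusted p = 0.00385), a call that a pseudocount of 0.1 ended (-0.93, adjusted p = 0.23), and Pramef8 by -0.98 (SE 0.34, adjusted p = 0.0421). The Pramef8 call was lost in 15 of 26 fits that left out 1 library (adjusted p up to 0.0759) and without the filter (adjusted p = 0.102). Pramel7 and Pramel4 reached 1 FPKM in no early embryo and passed the filter only through late embryos. Their changes largely repeat the late differences of -2.20 and -1.73. Pramel6 changed by -0.07 (95% interval -0.63 to 0.48) and Pramel5 by 0.25 (95% interval -0.29 to 0.80). Between the early stage and the egg, 0 of 6 members tested passed, with 1 at an unadjusted p under 0.05 (Pramef12), and 0.351% of 9676 genes were called (0.217% higher, 0.134% lower).

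Summed markers were compared between late MZ-KO and WT embryos. The summed level of 6 late 2-cell markers was 578 to 922 FPKM in MZ-KO and 1265 to 1687 FPKM in WT late embryos. That of 5 early 2-cell markers was 47.6 to 195 FPKM in MZ-KO and 140 to 386 FPKM in WT late embryos. The latter sum was higher late than early in both genotypes, so as a sum it did not mark the early stage here. Its medians were 102 FPKM late and 20.8 FPKM early in MZ-KO, and 289 FPKM late and 47.9 FPKM early in WT. Its genes went different ways in WT. Usp17lb averaged 225 FPKM late and 20.3 FPKM early, and Duxf3 0.00767 FPKM late and 2.72 FPKM early. Zscan4c, Zscan4d and Zfp352 were not called between these stages. Egg markers summed to 53.6 to 329 FPKM in MZ-KO and 61.5 to 113 FPKM in WT late embryos. Sperm markers (6 genes) summed to 7.6 to 13.5 FPKM in MZ-KO and 10.1 to 28.7 FPKM in WT late embryos. The sum of 5 blood markers was 14.8 to 76.9 FPKM in MZ-KO and 6.49 to 14.2 FPKM in WT late embryos. The part of these in the members' differences was not tested.

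Other genes of the family and of its known pathways were counted from lists written with earlier results of these data known. Of 22 other PRAME-family genes tested in late embryos, 2 were higher in MZ-KO and 6 lower, median 0.16. The lower ones included Gm13128, Gm13102, Gm13083 and Gm13078, which share sequence with called members and may hold the same reads. Over all genes 18.5% were higher and 13.4% lower. Only the share called in either direction, 31.9% over all genes, is near that of this list. B020031M17Rik was higher (2.45, adjusted p = 5.23e-05, at 8.33 FPKM in MZ-KO and 0.640 FPKM in WT), and Gm13078 had the most negative difference of that list (-2.34, adjusted p = 0.00237, at 2.46 FPKM in MZ-KO and 19.3 FPKM in WT). Among the 22 rows that only RefSeq names Pramel, 16 were tested, with 2 higher and 7 lower, beside the same shares over all genes. Gm12794 was the most negative (-3.18, adjusted p = 0.000312, at 2.73 FPKM in MZ-KO and 41 FPKM in WT). In WT embryos 8 of 22 tested other PRAME-family genes were higher late than early and 12 lower, where 85% of all genes were called (46.6% higher, 38.4% lower). The lower ones included Oog1, an oocyte-specific gene, at 46.4 FPKM in late and 666 FPKM in early WT embryos, and the higher ones included Gm9531, listed by RefSeq as a pseudogene, at 571 FPKM in late and 6.06 FPKM in early WT embryos.

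Genes of the CUL2 ligase, the enzyme that PRAME proteins serve as receptors, went both ways in late embryos, with 4 of 12 higher in MZ-KO and 3 lower, beside 18.5% higher and 13.4% lower over all genes. The 4 largest called differences were those of Lrr1, Vhl, Ube2m and Elob. Ube2m (0.92, adjusted p = 0.0134) and Elob (0.78, adjusted p = 0.00257), which codes for an adaptor, were higher. Vhl (-1.05, adjusted p = 0.00239) and Lrr1 (-1.17, adjusted p = 0.00663), which code for other substrate receptors, were lower. Cul2 itself differed by 0.22 (adjusted p = 0.483). Of 4 genes of the Uhrf1 and maintenance methylation list tested, Dnmt3l was higher (0.96, adjusted p = 0.00113) and Pcna, the sliding clamp of replication, lower (-1.02, adjusted p = 0.000311). Uhrf1 passed no filter in late embryos. It was lower late than early in both genotypes, at 1.16 ± 0.426 FPKM late and 7.14 ± 2.09 FPKM early in MZ-KO (-1.90, adjusted p = 5.74e-07) and 0.631 ± 0.315 FPKM late and 5.36 ± 1.23 FPKM early in WT (-1.96, adjusted p = 9.94e-09).

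The list for retinoic acid signalling also held Suz12, Ezh2 and Eed, which are subunits of the Polycomb complex. Of its 6 genes tested in late embryos, 2 were higher in MZ-KO (Suz12 and Ezh2) and 1 lower (Rxra, a nuclear receptor, -1.09, adjusted p = 0.000291). The shares over all genes were 18.5% higher and 13.4% lower. Rarg, Rdh10 and Eed were not called. Of 24 Dux-induced 2-cell genes tested in late embryos, 14 were lower in MZ-KO and 1 higher, Tcstv1, with a median of -1.23, where 13.4% of all genes were lower and 18.5% higher. In early embryos, where 3.28% of all genes were called, 1 of 25 was higher in MZ-KO and 0 lower, and 1 of 18 other PRAME-family genes was higher, Gm13103 (2.18, adjusted p = 0.0412).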

How the data were processed

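The authors deposited 1 table of FPKM values per gene and library. Per the submitters' processing notes, TopHat2, DESeq and DESeq2 were used with mm10, with no versions. The FPKM divide by the genomic span, since low values of genes spanning at most 2000 bp came out as whole reads within 0.1 read in at least 99.3% of cases, which gave the depths. The table also holds the authors' log2 fold changes, their standard errors (a score without fixed range) and adjusted p-values for 1 comparison, as deposited. Columns carry no replicate numbers, so libraries are numbered in column order, and no per-sample column was left unmapped.

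Differences were tested with limma 3.58.1 (R 4.3.3, trend and robust options) on log2(FPKM + 1), with only the groups compared in each fit. Genes needed at least 1 FPKM in as many libraries as the smaller group has, and calls an adjusted p below 0.05 over all genes tested. The procedure was tested on simulated data. Ratios were compared by exact permutation (SciPy 1.17.1), and sequences aligned with Biopython 1.88. Members averaging 1 FPKM in a group are described in full, and of each list the called genes up to 4. Cell type markers served as a check of each library. The members and lists were chosen with earlier results of these data known. Alternatives were pseudocounts, filters, median-ratio scaling, one spread over all groups, the plain test, and leaving out each library.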

Additional observations from a re-analysis of the deposited data

Results flagged for a closer look

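Of 48 sets of early or late libraries of 1 member, 9 held a library farther from the rest than Dixon's 95% value allows. Chance flags about 1 in 20 sets when values are normally spread. Pramel1 and Pramel6 were listed at 0 in 5 of 6 early MZ-KO libraries, where any other value is flagged. The count therefore cannot be set against that rate. In late embryos the flagged values were Pramel4 in MZ-KO library 3 at 17.979 FPKM and Pramel1 in MZ-KO library 6 at 1.425 FPKM. In early MZ-KO embryos they were Pramef6 and Pramel5 in library 4 at 1.627 and 0.346 FPKM, Pramel1 in library 6 at 0.185 FPKM and Pramel6 in library 2 at 0.06 FPKM. In early WT embryos they were Pramef12 in library 4 at 7.746 FPKM, Pramel3 in library 5 at 1.353 FPKM and Pramel6 in library 3 at 0.283 FPKM.

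The MZ-KO over WT difference changed between the early and late stages for 4 members. The changes were -2.34 for Pramef17 (limma, adjusted p = 4.9e-05), -2.16 for Pramel7 (adjusted p = 5.76e-06), -1.56 for Pramel4 (adjusted p = 0.00385) and -0.98 for Pramef8 (adjusted p = 0.0421). The Pramel4 call ended with a pseudocount of 0.1 (adjusted p = 0.23), and the Pramef8 call in 15 of 26 fits that left out 1 library and without the filter (adjusted p = 0.102). Pramel7 and Pramel4 reached 1 FPKM in no early embryo, so their changes largely repeat their late differences.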

How the results depend on the processing

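The number of members called stayed within 1.5 times, in every comparison, under the alternatives run, except as follows. With a filter of 5 FPKM, 1 member was called between MZ-KO early embryos and KO eggs and 5 between late and early MZ-KO embryos, since fewer members were tested. With median-ratio scaling 1 early MZ-KO over WT member was called, and the cause was not tested. Leaving out 1 library gave 0 to 1 called members in that comparison, 6 to 7 between late MZ-KO and WT embryos, and 3 to 5 for the change of the genotype difference between early and late. Without the filter Pramef25 and Pramef8 were not called in late embryos. More genes were then tested, and the SE was also larger, at 0.517 against 0.490 for Pramef25 and 0.307 against 0.296 for Pramef8. The part of each was not tested.

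The differences that changed sign were ones without a call. With median-ratio scaling Pramef12 was at -0.0255 for early MZ-KO over WT, -0.00237 for late MZ-KO over WT and -0.0209 for the change between these, and Pramef8 at -0.0336 for MZ-KO early over KO egg. Without WT early library 3, early MZ-KO over WT was 0.0219 for Pramef8 and -0.0182 for Pramef12, and the change of the late genotype difference of Pramef6 passed (-1.58, adjusted p = 0.0206). With a pseudocount of 0.1 the changes were 0.13 for Pramel6 (late minus early) and 0.54 for Pramef17 (early minus egg). No paired analysis was possible because the columns carry no replicate numbers. Depth limits members under the 3-read level.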
